A study of Mus musculus with 8 samples.

Results

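The genes described here are the interferon-stimulated antiviral genes of the mouse liver, 34 symbols that were taken as a set and looked up in the annotation of an Affymetrix Mouse Gene 1.0 ST array. Symbols were matched to transcript clusters, the array's unit for a gene, with no filter on signal. This gave 33 clusters for 33 symbols among the 23410 clusters that carry at least 1 symbol, and Ifi44 was the symbol for which no cluster was found. Most clusters name 1 gene, but 3 carry several symbols (Ifi47/Olfr56, Isg15/Gm9706 and Oas1a/Oas1g), and Oas1a has a second cluster of its own.

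All mice were male C57Bl/6J animals, and 10 mice made up each of 4 groups. The low-fat diet (LFD) gave 13% of calories as fat and the high-fat diet (HFD) 42%, and both were given with plain deionized water. In the groups LFD+As and HFD+As the same diets were combined with sodium arsenite in the drinking water at 3 mg of inorganic arsenic per litre. The labels give the exposure as 10 weeks in the protocols and as 90 days in the source description, and which holds is not settled. Liver RNA of 5 mice was pooled in equal amounts for each array, so each group has 2 arrays (replicate 1 and replicate 2), 8 in all, and every p-value below measures the spread between such pools, not between mice.

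Type I interferons are secreted when cells detect foreign or misplaced nucleic acid. They bind the receptor IFNAR1/IFNAR2, whose kinases JAK1 and TYK2 activate transcription factors, STAT2 with IRF9 among them, that bind interferon-stimulated response elements in the promoters of such genes. The products act as sensors of viral RNA, as blocks to translation and viral assembly, as the ubiquitin-like ISG15 system, and as factors that amplify or end the response. In the liver, hepatocytes, macrophages (Kupffer cells) and endothelial cells all respond to interferon, and uninfected tissue carries a basal level of these transcripts.

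The response element shows in the promoters of several members, which are printed because they carry the element through which interferon acts. The windows run from 250 bases before to 50 bases after the RefSeq start (assembly GRCm38.p6), and capitals mark each match, on either strand, to the core of the element, which was searched as GAAA, any 2 bases and GAAA again; on the other strand it reads TTTC, 2 bases and TTTC. The printed windows are Isg15 at chr4:156200769-156201068 (minus strand), Bst2 at chr8:71537423-71537722 (minus), Ifit1 at chr19:34640639-34640938 (plus), Ifit3 at chr19:34583279-34583578 (plus), Rsad2 at chr12:26456403-26456702 (minus) and Ddx58 at chr4:40239776-40240075 (minus).
Isg15: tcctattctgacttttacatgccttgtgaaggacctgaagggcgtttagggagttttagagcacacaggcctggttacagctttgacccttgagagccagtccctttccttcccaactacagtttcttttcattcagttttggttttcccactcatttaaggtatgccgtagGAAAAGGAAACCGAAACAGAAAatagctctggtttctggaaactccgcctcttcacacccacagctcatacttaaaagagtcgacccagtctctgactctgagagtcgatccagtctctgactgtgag
Bst2: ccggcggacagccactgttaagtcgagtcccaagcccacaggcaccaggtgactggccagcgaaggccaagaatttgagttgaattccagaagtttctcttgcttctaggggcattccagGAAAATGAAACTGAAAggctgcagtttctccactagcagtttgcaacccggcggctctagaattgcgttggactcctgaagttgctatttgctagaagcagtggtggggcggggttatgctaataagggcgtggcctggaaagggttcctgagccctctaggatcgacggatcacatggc
Ifit1: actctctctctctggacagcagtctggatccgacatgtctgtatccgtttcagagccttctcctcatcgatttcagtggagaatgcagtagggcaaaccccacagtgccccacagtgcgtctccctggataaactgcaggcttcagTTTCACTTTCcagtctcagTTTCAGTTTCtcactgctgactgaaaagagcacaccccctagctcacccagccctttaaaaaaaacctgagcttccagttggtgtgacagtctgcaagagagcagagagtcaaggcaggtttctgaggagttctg
Ifit3: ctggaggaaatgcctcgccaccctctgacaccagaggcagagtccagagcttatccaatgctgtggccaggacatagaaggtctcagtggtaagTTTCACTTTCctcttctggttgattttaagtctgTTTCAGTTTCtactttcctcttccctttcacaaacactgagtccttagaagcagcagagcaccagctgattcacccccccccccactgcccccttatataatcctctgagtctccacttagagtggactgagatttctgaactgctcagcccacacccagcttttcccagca
Rsad2: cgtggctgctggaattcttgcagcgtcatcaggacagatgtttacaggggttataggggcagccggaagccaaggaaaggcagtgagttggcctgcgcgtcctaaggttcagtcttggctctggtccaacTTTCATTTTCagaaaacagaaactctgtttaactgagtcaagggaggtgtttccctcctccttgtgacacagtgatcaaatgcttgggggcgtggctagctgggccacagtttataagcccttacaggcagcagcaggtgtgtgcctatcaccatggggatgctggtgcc
Ddx58: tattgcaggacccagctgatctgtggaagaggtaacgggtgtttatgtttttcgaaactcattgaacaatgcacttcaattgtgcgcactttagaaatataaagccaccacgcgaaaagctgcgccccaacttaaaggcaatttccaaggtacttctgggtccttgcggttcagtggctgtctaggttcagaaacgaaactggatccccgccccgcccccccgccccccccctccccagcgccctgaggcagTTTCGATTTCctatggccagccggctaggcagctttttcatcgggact
Isg15 held 3 overlapping matches, the first beginning 78 bases before the start, and Bst2 held 2 overlapping ones. In Ifit1 the 2 matches stood apart, at -104 and -85, and in Ifit3 at -156 and -122, each on the strand that reads TTTC. Rsad2 had 1 match at -120, and that of Ddx58 lay just behind the start, at 3.

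Windows were found for 25 of the 34 symbols. The core occurred in 13 of these 25 (52.0%, exact 95% interval 31.3 to 72.2%), against 1079 of 27025 genes in the same table (3.99%). A longer form, the core followed by CT, occurred in 7 (28.0%, 12.1 to 49.4%), against 82 of all genes (0.303%). Besides the 6 printed, the core was found in Eif2ak2, Ifih1, Oas1a, Oas1g, Oas3, Stat2 and Trim30a. A match is a description of letters and shows no binding, and its absence says only that these letters are not in the window. Oas1b, Dhx58, Zbp1, Ifi27l2a, Rtp4, Parp14, Usp18, Oas2 and Parp9 had no entry in the promoter table.

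**Figure D1:**
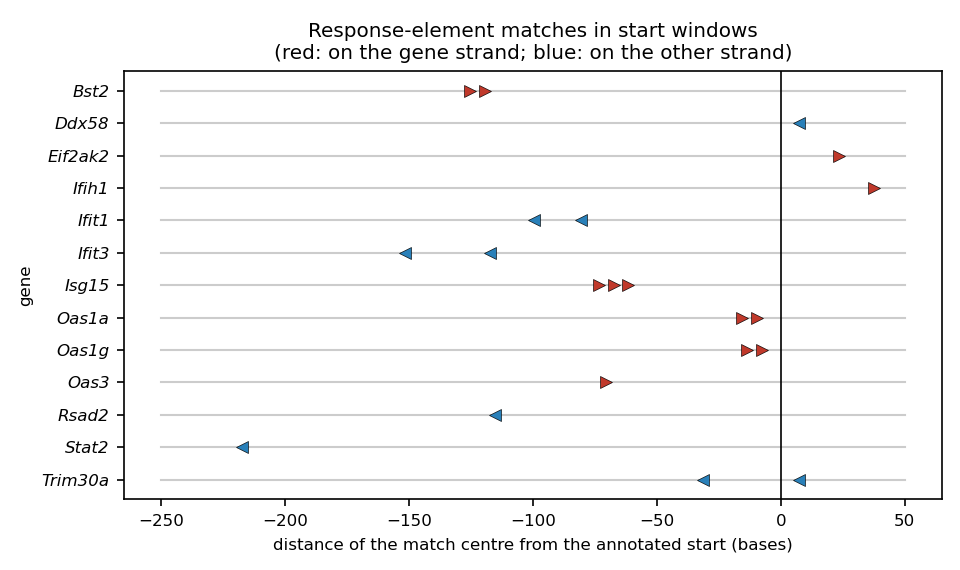
Positions of matches to the element core in the promoter windows of the 13 member genes that hold one, in bases relative to the RefSeq start (0 to the right of the upstream part), with colour showing the strand. Most matches lie upstream of the start, and those of Ddx58, Eif2ak2, Ifih1 and 1 of Trim30a lie within the first 50 bases behind it.

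The arrays gave log2 signals, on which a difference of 1 is a doubling of the signal. They were compared with limma over all 23410 clusters, with p-values adjusted by Benjamini-Hochberg within each comparison and a threshold of 0.05. Array medians lay between 7.08 and 7.18, and the median standard error (SE) of a group difference was 0.131. The 9 hepatocyte markers had a mean log2 signal of 13.5 to 13.8 in the 8 arrays. Array deviations followed the genomic span of the genes, with rank correlations between -0.35 and -0.27 in both HFD+As arrays and between -0.085 and 0.30 in the other 6.

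Arsenite went with lower signals of these genes on each diet. On the low-fat diet the member median was -0.24 (LFD+As minus LFD; all clusters -0.011), with 29 of 33 members below 0 against 53.9% of all clusters. On the high-fat diet the median was also -0.24 (HFD+As minus HFD; all clusters -0.015), with 32 of 33 below 0 against 52.7%. These comparisons share no array. Within each comparison the members share arrays, and they were chosen with earlier results of these data known. Counts of members, here and below, are therefore a description and not 33 separate observations. For the high-fat diet alone (HFD minus LFD) the median was 0.094, with 9 of 33 members below 0 against 56.5% of all clusters. The direction of that median rests on 1 array: it was -0.059 without HFD replicate 1 and 0.24 without HFD replicate 2.

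No member passed the threshold for arsenite on either diet, where limma called 0% of all clusters in both comparisons. The smallest adjusted p of a member was 0.615 on the low-fat diet and 0.134 on the high-fat diet. At an unadjusted p under 0.05, 8 members were lower and 0 higher on the low-fat diet, against 1.24% of all clusters lower and 1.14% higher. On the high-fat diet 9 were lower and 0 higher, against 12.4% and 6.66% of all clusters. With arsenite averaged over both diets, all 33 members lay below 0 (56.3% of all clusters) and the median was -0.26. None passed the threshold (limma called 0 clusters), the smallest adjusted p being 0.117, for Dhx58; at an unadjusted p under 0.05, 17 were lower and 0 higher, against 6.75% and 4.13% of all clusters.

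In both diets 14 members had every arsenite array below every plain-water array of the same diet (42.4%, against 4.67% of all clusters). They were the sensors Ddx58, Dhx58, Ifih1 and Zbp1; the synthetase family genes Oas2, Oas3, Oasl1 and Oasl2; and Ifit2, Eif2ak2, Cmpk2, Parp9, Trim30a and Xaf1. On the low-fat diet alone, 24 members lay wholly below (15.9% of all clusters) and 1, Oas1a, wholly above (11.2%). On the high-fat diet 18 lay wholly below (29.5%) and 0 above (22.6%). The effects in the 2 diets ran only weakly in parallel from gene to gene, with Pearson r = 0.137 over the 33 members, given as a description because the members share arrays.

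**Figure D2:**
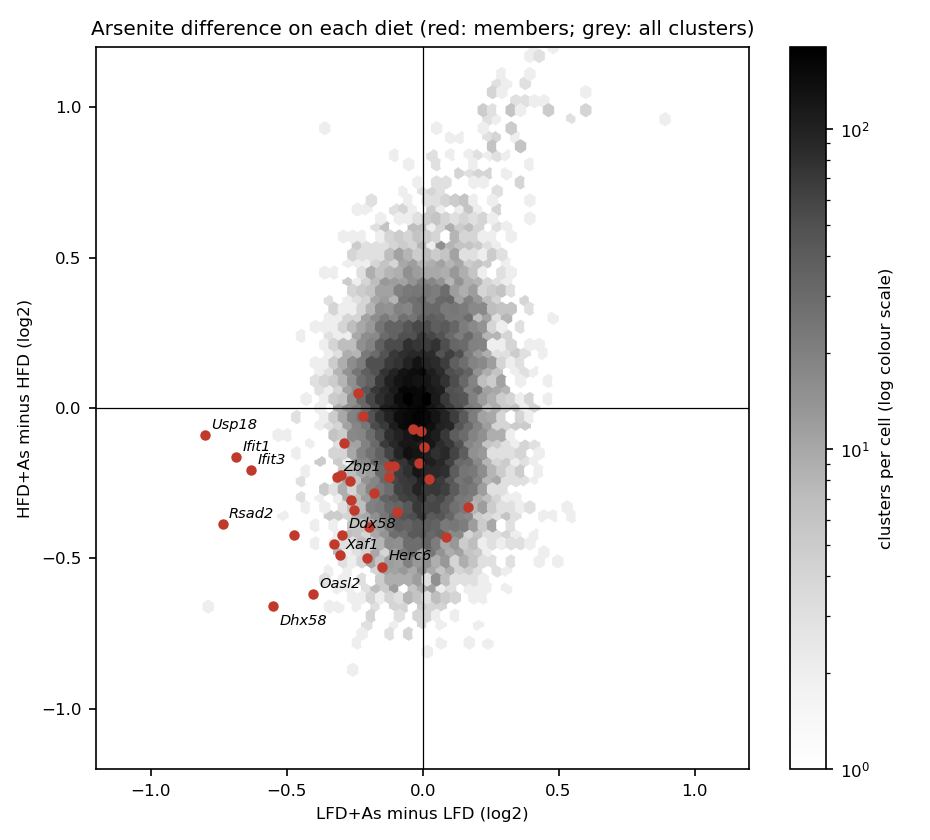
Arsenite difference on the low-fat diet (x axis, LFD+As minus LFD, log2) against that on the high-fat diet (y axis, HFD+As minus HFD, log2), with members as red points over the density of all clusters; 123 clusters lie outside the plotted range of 1.2 on either side of 0. Most members (28 of 33) lie in the lower left part of the plot. Usp18, Ifit1 and Ifit3 lie far to the left, at -0.089, -0.16 and -0.21 on the y axis.

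**Figure D3:**
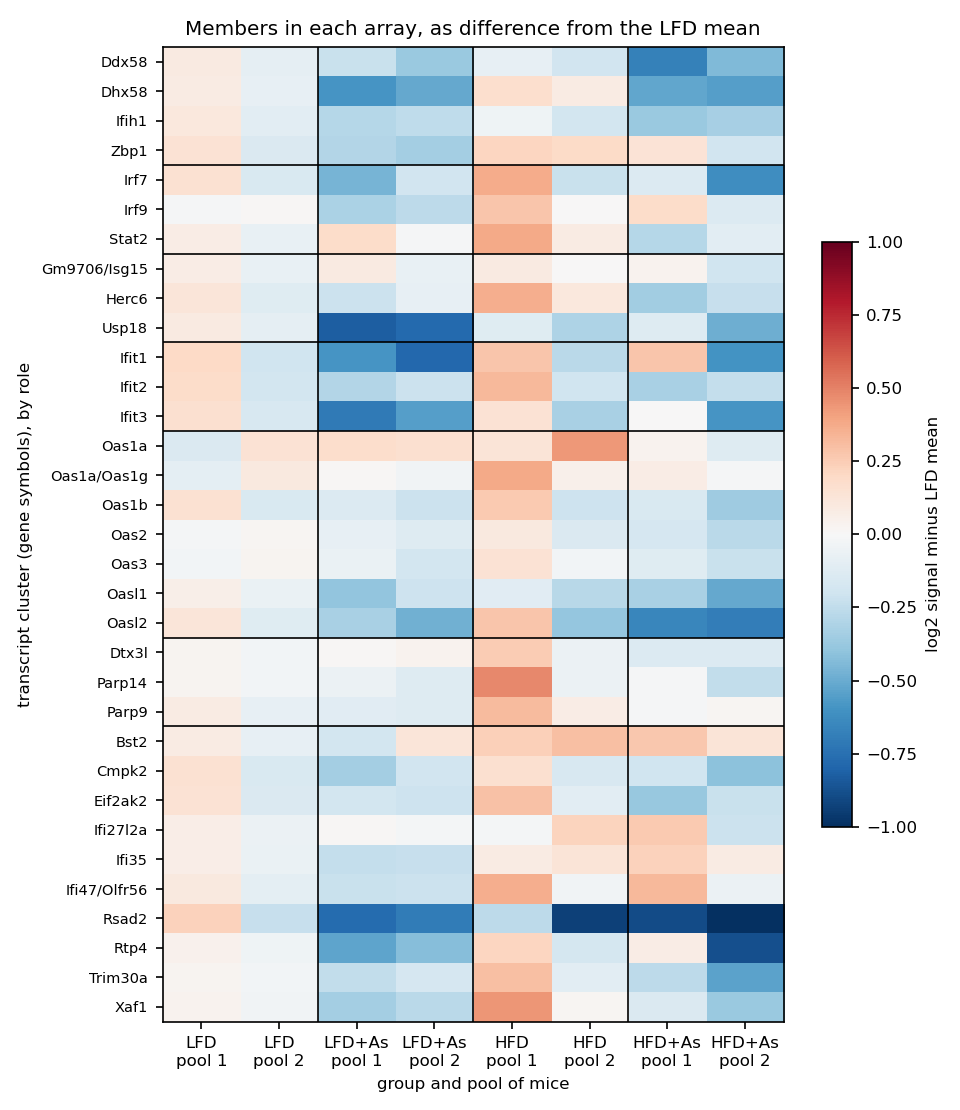
Log2 signal of each member in each of the 8 arrays minus its mean over the 2 LFD arrays, grouped by role, with the colour scale running from -1 to 1. Blue, for lower signal, prevails in the arsenite columns of both diets, and the HFD replicate 1 column is mostly above LFD.

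Set against the low-fat control, the combined exposure gave the only calls of members in this fit. In that comparison, HFD+As against LFD, Dhx58, Rsad2 and Ddx58 fell, 3 of 33 members and all downward, where limma called 4.57% of all clusters and 2.64% downward. At an unadjusted p under 0.05, 7 members were lower and 0 higher (13.4% and 7.13% of all clusters), and 18 lay wholly below LFD and 2 wholly above (29.1% and 16.3%). The member median was -0.25 and 26 members lay below 0 (all clusters: median -0.031, 56.1% below 0). Leaving out any 1 of the 6 LFD, LFD+As and HFD+As arrays left no member past the threshold, and between 0 and 100 clusters in all. Without either HFD array, Dhx58 and Rsad2 kept their calls, Oasl2 gained one and Ddx58 lost its own, so the call of Ddx58 was lost with any 1 of the 8 arrays left out. Among the 60% of clusters with the highest means, with 1 cluster per gene, 27 members remained and 5 of them fell, Oasl2 and Oasl1 in addition, where 12.4% of the 11963 genes tested fell.

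The 4 sensors of foreign nucleic acid among the members gave like arsenite differences on both diets. A further 13 nucleic acid sensors and adaptors outside the members shared the lower signals on the high-fat diet only. Their median arsenite difference was 0.021 on the low-fat diet (6 below 0) and -0.22 on the high-fat diet (13 below 0). Dhx58, which encodes LGP2, a helicase that tunes signalling by its relatives, had log2 signals of 8.82 and 8.65 for LFD, 8.15 and 8.23 for LFD+As, 8.90 and 8.82 for HFD, and 8.22 and 8.19 for HFD+As. The 4 arsenite arrays were all below the 4 plain-water arrays, whatever the diet. Its difference was -0.55 on the low-fat diet (SE 0.111, limma adjusted p = 0.921) and -0.66 on the high-fat diet (SE 0.111, limma adjusted p = 0.134). In HFD+As against LFD Dhx58 fell by 0.53 (SE 0.111, limma adjusted p = 0.0366), to 0.691 of the LFD signal.

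Ddx58 encodes RIG-I, the sensor of viral RNA ends. Its signals were 10.3 and 10.1 for LFD, 9.99 and 9.84 for LFD+As, 10.1 and 10.0 for HFD, and 9.54 and 9.77 for HFD+As. The HFD+As arrays were the lowest of all 8, and the arsenite arrays lay below the plain-water arrays on each diet. Ddx58 fell by 0.56 in HFD+As against LFD (SE 0.128, limma adjusted p = 0.0451). With the gene-span trend removed the difference there was -0.50 and no longer passed the threshold. Its difference was -0.30 for arsenite on the low-fat and -0.42 on the high-fat diet. Ifih1, which encodes MDA5, the sensor of long double-stranded RNA, lay at -0.27 and -0.24 in the same comparisons.

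Zbp1 encodes a sensor of left-handed (Z-form) nucleic acid that can trigger cell death. Its signals were 8.50 and 8.21 for LFD, 8.06 and 8.02 for LFD+As, 8.57 and 8.54 for HFD, and 8.49 and 8.16 for HFD+As. Within each diet the arsenite arrays were lower, but HFD+As overlapped LFD, and the difference there was -0.027. Over the 4 sensors the median arsenite difference was -0.31 on the low-fat and -0.33 on the high-fat diet, and all arsenite arrays of all 4 sensors lay below the plain-water arrays of the same diet.

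Of the transcription factors, Stat2 and Irf9 encode proteins that act together at the response element, and Irf7 encodes the factor that amplifies interferon production. Stat2 differed between diets: arsenite gave 0.085 on the low-fat diet and -0.43 on the high-fat diet (limma adjusted p = 0.185). The difference of these effects, the interaction, was -0.51 (SE 0.199, limma adjusted p = 0.552) and did not pass the threshold. Irf9 stood at -0.29 and -0.12 and Irf7 at -0.33 and -0.45, each with overlapping arrays on the high-fat diet.

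The genes of the ISG15 system differed among themselves. Usp18 encodes the protease that removes ISG15 from proteins and also dampens the interferon receptor. Its signals were 9.34 and 9.16 for LFD, 8.43 and 8.47 for LFD+As, 9.13 and 8.94 for HFD, and 9.13 and 8.77 for HFD+As. The LFD+As arrays stood below all others, and the HFD+As and HFD arrays overlapped. Usp18 had the largest arsenite difference of any member on the low-fat diet, -0.80 (SE 0.143, limma adjusted p = 0.615), against -0.089 on the high-fat diet. Its interaction, 0.71 (SE 0.203, limma adjusted p = 0.548), did not pass the threshold. At an unadjusted p under 0.05 the interaction was higher for 1 member, Usp18, and lower for 2, Stat2 and Oas1a, against 2.9% and 6.11% of all clusters; limma called 0 clusters.

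Herc6 encodes the mouse ligase that attaches ISG15. Its signals were 8.80 and 8.56 for LFD, 8.46 and 8.60 for LFD+As, 9.05 and 8.79 for HFD, and 8.33 and 8.45 for HFD+As. The arrays overlapped on the low-fat diet and were apart on the high-fat diet, where the difference was -0.53 (SE 0.136, limma adjusted p = 0.163). The Isg15/Gm9706 cluster lay at 0.0067 and -0.13; it may also read the second symbol.

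The IFIT proteins bind viral RNA and halt its translation. Ifit1 had signals of 8.57 and 8.17 for LFD, 7.79 and 7.58 for LFD+As, 8.65 and 8.11 for HFD, and 8.65 and 7.78 for HFD+As. The LFD+As arrays were below the LFD arrays, whereas the HFD+As pools were 0.87 apart and spanned the HFD pools. Its difference was -0.69 on the low-fat diet (SE 0.278, limma adjusted p = 1.0) and -0.16 on the high-fat diet. Ifit3 likewise had LFD+As arrays below the LFD arrays and overlapping HFD+As and HFD arrays, with 8.99 and 8.67 for LFD, 8.12 and 8.28 for LFD+As, 8.98 and 8.51 for HFD, and 8.84 and 8.24 for HFD+As. Its differences were -0.63 (SE 0.218, limma adjusted p = 1.0) and -0.21. Ifit2, a neighbour of Ifit3 on chromosome 19, lay at -0.25 and -0.34.

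The oligoadenylate synthetases make the second messenger that activates RNase L. Oasl2, whose product lies in this family, had signals of 8.39 and 8.15 for LFD, 7.95 and 7.79 for LFD+As, 8.55 and 7.89 for HFD, and 7.62 and 7.58 for HFD+As. The HFD+As arrays were the lowest, and the HFD pools lay 0.67 apart. The difference was -0.67 in HFD+As against LFD (SE 0.196, limma adjusted p = 0.0869), -0.40 for arsenite on the low-fat diet and -0.62 on the high-fat diet. The 7 clusters of the family had a median of -0.13 on the low-fat and -0.23 on the high-fat diet. Oas1b lay at -0.18 and -0.28, Oas2 at -0.11 and -0.19, Oas3 at -0.13 and -0.23, Oasl1 at -0.30 and -0.22, and the shared Oas1a/Oas1g cluster at -0.014 and -0.18. The Oas1a cluster was the exception: all LFD+As arrays lay above the LFD arrays (0.17) and all HFD+As arrays below the HFD arrays (-0.33), with an interaction of -0.49 (limma adjusted p = 0.552). Sequences of the Oas1, Ifit, Trim30 and Ifi27l2 genes are close to those of their relatives, so a cluster may read more than its own gene.

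The remaining members are effectors of several kinds. Rsad2 encodes viperin, an enzyme that makes a chain-terminating nucleotide. It had signals of 8.85 and 8.39 for LFD, 7.85 and 7.92 for LFD+As, 8.36 and 7.69 for HFD, and 7.72 and 7.55 for HFD+As. All 6 arrays of the other groups lay below both LFD arrays. Rsad2 fell by 0.98 in HFD+As against LFD (SE 0.218, limma adjusted p = 0.0416), to 0.507 of the LFD signal, the largest difference of any member there. It was also the only member lower on the high-fat diet alone at an unadjusted p under 0.05 (-0.59, SE 0.218, limma adjusted p = 0.591). For arsenite, Rsad2 lay at -0.74 on the low-fat diet and at -0.385 on the high-fat diet, where its arrays overlapped. Without HFD replicate 1, Rsad2 lay at -0.0495 in HFD+As against HFD. Cmpk2, its neighbour on chromosome 12, which encodes a mitochondrial nucleotide kinase, lay at -0.26 for arsenite on the low-fat and -0.30 on the high-fat diet.

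Xaf1, which encodes a pro-apoptotic binding partner of XIAP, had signals of 7.64 and 7.57 for LFD, 7.27 and 7.33 for LFD+As, 8.04 and 7.63 for HFD, and 7.46 and 7.23 for HFD+As. Each diet's arsenite arrays were below its plain-water arrays, with differences of -0.30 and -0.49. Eif2ak2, which encodes the translation-blocking kinase PKR, lay at -0.20 and -0.39, and Trim30a at -0.21 and -0.50. Ifi47, an interferon-induced GTPase read by a cluster shared with Olfr56, lay at -0.22 and -0.028. Rtp4 lay at -0.47 and -0.42 with an SE of 0.261. On the high-fat diet its HFD+As pools, at 8.90 and 7.95, overlapped the HFD pools, at 9.05 and 8.65.

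Other members lay near 0 on at least 1 diet. Bst2, which encodes tetherin, lay at -0.034 and -0.069 for arsenite; both HFD arrays and both HFD+As arrays were above both LFD arrays. Ifi35 lay at 0.049 for arsenite on the high-fat diet, the only member above 0 there, and at -0.24 on the low-fat diet. Ifi27l2a lay at -0.0047 and -0.077. The PARP genes Parp9 and Parp14 and their partner Dtx3l, neighbours on chromosome 16, had a median of -0.094 on the low-fat and -0.24 on the high-fat diet, with Parp9 at -0.12 and -0.19, Parp14 at -0.094 and -0.34, and Dtx3l at 0.022 and -0.24.

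**Figure D4:**
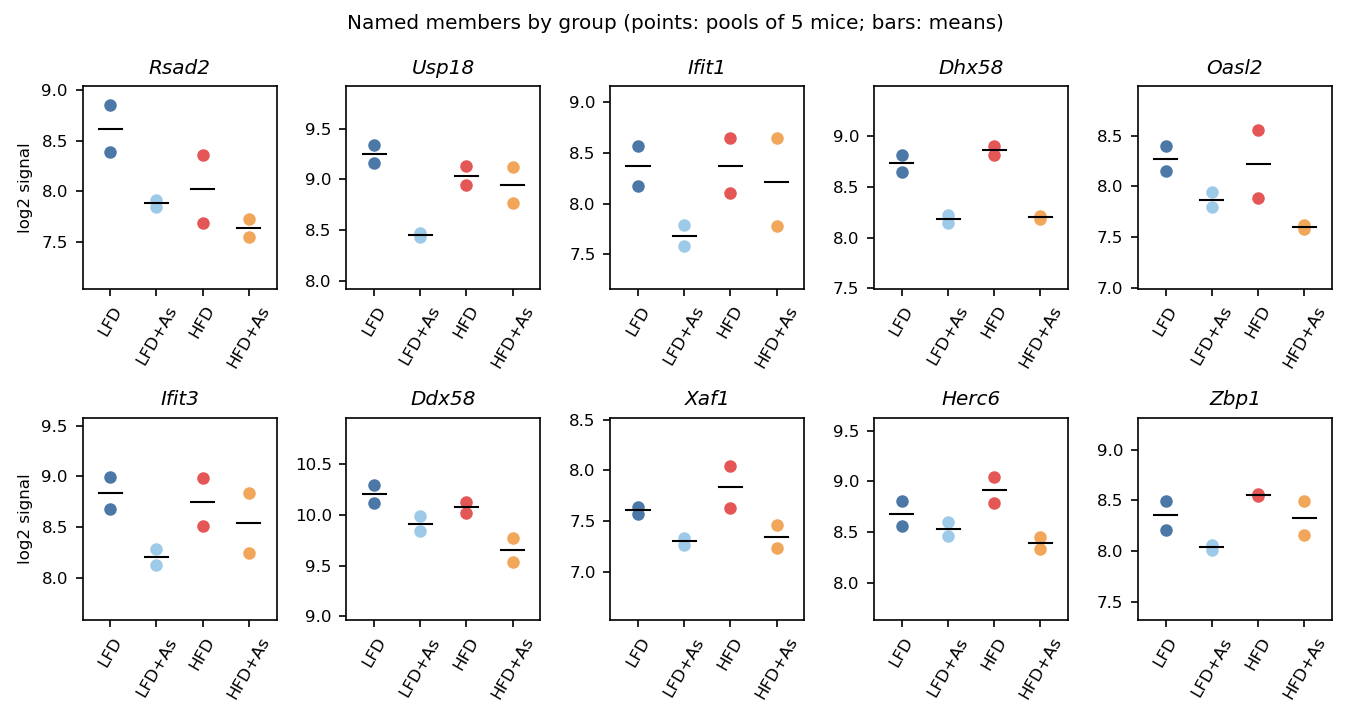
Log2 signal of the 10 named members in each of the 8 arrays, with the points for the 2 arrays of each group and a line at their mean; the panels have separate y axes, since levels of different clusters cannot be compared. Dhx58 separates the arsenite arrays from the plain-water arrays on both diets, the Usp18 arrays of LFD+As are the lowest of the 8, and the HFD+As pools of Ifit1 stand 0.87 apart.

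No member passed the threshold for the high-fat diet, with or without arsenite, where limma called 0% of all clusters in both comparisons. Without arsenite, HFD against LFD had 3 members wholly lower (19.2% of all clusters) and 4 wholly higher (17.2%), where at an unadjusted p under 0.05 1 member was lower and 0 higher (3.19% and 4.52% of all clusters). Among mice given arsenite (HFD+As against LFD+As) the member median was -0.043, with 11 members wholly lower and 7 wholly higher (29.4% and 21.2% of all clusters). At an unadjusted p under 0.05, 0 members were lower and 2 higher there (12.5% and 5.94% of all clusters): Ifi35 at 0.39 (limma adjusted p = 0.109) and Usp18 at 0.49 (limma adjusted p = 0.113). With 1 cluster per gene among the 60% highest means both passed the threshold there (Usp18 adjusted p = 0.0408, Ifi35 adjusted p = 0.0473), where 1.82% of the genes tested rose. That setting also called Dhx58 (adjusted p = 0.019) and Herc6 (adjusted p = 0.0481) lower in HFD+As against HFD, where 3.25% of genes fell, and Dhx58 lower with arsenite averaged over both diets (adjusted p = 0.00925), where 0.443% fell. Averaged over both waters, the high-fat diet gave a member median of 0.035 and no call (0.0214% of all clusters), with 1 member lower and 4 higher at an unadjusted p under 0.05 (9.47% and 7.03%).

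**Figure D5:**
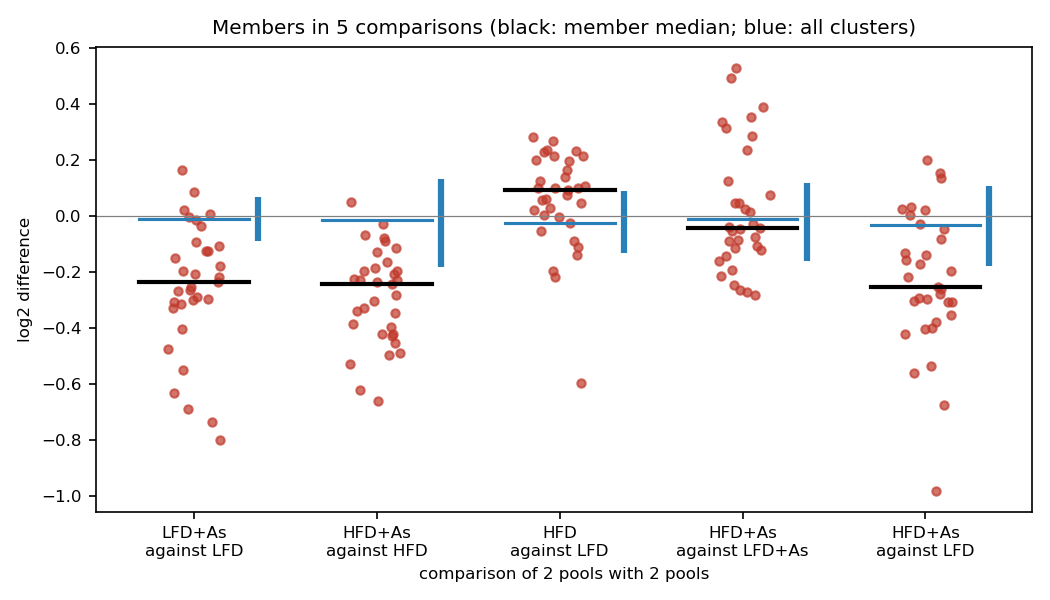
Log2 difference of every member in each pairwise comparison made (points), with the member median as a black line and the median and interquartile range of all clusters as a blue line and bar. The member median is -0.24 for arsenite on each diet and -0.25 for HFD+As against LFD. It is 0.094 for HFD against LFD and -0.043 for HFD+As against LFD+As. The medians of all clusters stay within 0.031 of 0.

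The pools differed in these genes. In LFD, 28 of 33 members were higher in replicate 1 than in replicate 2 (median difference 0.17; 55.8% of all clusters), and in HFD 29 were (0.30; 53.3%). In LFD+As it was 15 (-0.010; 54.8% of all clusters) and in HFD+As 26 (0.17; 50.7%). Replicate 2 of HFD, with a median of -0.059 against the LFD mean, lay nearer the arsenite arrays (-0.25 to -0.14) than did replicate 1 (0.24). Replicate 2 of LFD, at -0.084, lay nearer still. Replicate 1 of LFD lay at 0.084, the mirror value, because the mean of these 2 arrays is the reference. The member median for arsenite on the low-fat diet was -0.16 without LFD replicate 1, and that of HFD+As against LFD was -0.16 without LFD replicate 1 and -0.14 without HFD+As replicate 2. Without HFD replicate 1 the median for arsenite on the high-fat diet was -0.14, and without HFD replicate 2 it was -0.43.

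Genes above and beside the members were read from lists. The 7 interferon genes measured had medians of -0.0064 and 0.022 for arsenite on the low-fat and high-fat diet, and none passed the threshold. Ifnb1, for interferon beta, lay between 5.72 and 6.01 in all 8 arrays. Receptors, kinases and STAT factors other than the members (10 genes) had a median of -0.015 on the low-fat diet and -0.31 on the high-fat diet, where 9 of 10 were below 0 and none passed. Tyk2 was at -0.021 and -0.59 (limma adjusted p = 0.153 on the high-fat diet), Jak1 at -0.0079 and -0.31, Ifnar1 at 0.036 and -0.23, and Ifnar2 at 0.030 and -0.16.

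Among factors and feedback genes, Irf1 stood at 0.043 and -0.43, Irf3 at -0.094 and -0.017, Irf5 at -0.26 and -0.34, and Socs1, which inhibits the kinases, at -0.17 and 0.14, none past the threshold. Cxcl10, a chemokine induced by both interferon types, lay at 0.14 and -0.068, and the Gbp2/Gbp2b cluster at -0.20 and -0.27. The 58 further interferon-stimulated genes had a median of -0.049 on the low-fat diet (42 below 0, 0 past the threshold). On the high-fat diet their median was -0.18 (50 of 58 below 0, 0 past the threshold). The 9 interferon-induced GTPases outside the members had medians of -0.27 on the low-fat diet (7 below 0) and -0.29 on the high-fat diet (8 below 0). The member median was -0.24 on each diet. Differences between the lists were not tested.

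In HFD+As against LFD, 4 of the 58 fell (Rnf213 by 0.71, Helz2 by 0.58, Lgals3bp by 0.56 and Parp12 by 0.53; limma adjusted p = 0.0317, 0.0435, 0.0469 and 0.0373) and Ifi27 rose by 0.56 (adjusted p = 0.0337). Samhd1, a dNTP hydrolase that restricts viruses, fell by 0.59 (limma adjusted p = 0.0483). By list, 2 of the 15 negative regulators of interferon signalling fell and 0 rose (median -0.18, 12 below 0). Among the 20 interferon gamma targets and antigen presentation genes, 1 fell and 0 rose (median -0.10, 14 below 0). These counts stand beside 2.64% of all clusters lower and 4.57% in either direction, and leaving out single arrays other than the HFD ones left between 0 and 100 clusters called. Of the 9 interferon-induced GTPases, Gbp11 fell by 1.37 (limma adjusted p = 0.0292), and it was at -1.08 for arsenite on the low-fat diet (adjusted p = 0.334).

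Marker genes of liver cells were read beside these values. In HFD+As against HFD the 14 macrophage markers had a median of -0.39 with 12 below 0, and the 8 endothelial markers -0.43 with 8 below 0; none passed the threshold. On the low-fat diet the same lists lay at -0.043 and -0.090, while the members lay at -0.24. There the 5 B cell markers had a median of -0.16 with 5 below 0, and the 13 T and NK cell markers -0.068 with 11 below 0. Of these markers 4 and 7 had a mean signal under 7. Medians of the remaining marker lists on the low-fat diet ran from -0.042 (conventional dendritic cells) to 0.081 (cholangiocytes). In HFD+As against LFD the endothelial markers had a median of -0.44 (7 below 0), with 2 called lower and 0 higher. The macrophage markers lay at -0.13 (8 below 0), with 1 called higher. Of 8 neutrophil markers 3 were called higher, and of 6 plasmacytoid dendritic cell markers 1 was called lower. The other marker lists had no call there. In that comparison limma called 4.57% of all clusters and 2.64% downward. The mean log2 signal of the macrophage markers was 9.20 to 9.28 for LFD, 9.09 to 9.33 for LFD+As, 9.40 to 9.55 in HFD and 9.04 to 9.21 for HFD+As. That of the endothelial markers was 9.49 to 9.68, 9.48 to 9.54, 9.38 to 9.78 and 9.18 to 9.21 in the same order. No array value is a true 0, and there are no detection calls. The part of any of these cells in the member values was not tested on either diet. In whole liver fewer cells of a type and less RNA per cell cannot be told apart. Plasmacytoid dendritic cell markers, of the cell type that secretes most type I interferon, lay at -0.034 on both diets.

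Promoters with and without the motif gave like values. For arsenite on the low-fat diet, the 13 clusters with a match had a median of -0.20 (range -0.74 to 0.17) and the 11 without -0.26 (-0.40 to 0.022). On the high-fat diet the medians were -0.24 and -0.30. The ranges overlap widely, and the difference was not tested.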

How the data were processed

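The members, the gene lists and the alternatives were chosen with earlier results of these data known. The authors deposited 1 log2 signal for each cluster and array. Per the submitters' processing notes, the software was Affymetrix Expression Console 1.0; the background correction, normalization and summary methods are not given in the sources used here. There are no detection calls, so dim signals cannot be set against background, and the number of arrays limits the precision.

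Columns were assigned to samples by their labels. All 23410 clusters with a symbol in the platform annotation (of 35556; 1621 carry several symbols) entered a fit of 4 group means to all 8 arrays with limma 3.58.1 in R 4.3.3 (lmFit and eBayes), with no filter, 4 residual and 5.29 prior degrees of freedom, and Benjamini-Hochberg adjustment within each of 8 comparisons. The fit was tested on simulated data. Named members were those called anywhere plus those with the largest range of group means, up to 10; from other lists, up to 4 called genes per comparison, or up to 2 with the smallest p, could be named, with a fixed set of pathway genes. Promoters came from the RefSeq table of GRCm38.p6. Replicate numbers were not treated as pairs, since correlations of same-numbered deviations were not all over 0.1. They ran from 0.0414 (LFD+As with HFD) to 0.507 (LFD with HFD), and this rule cannot show whether some groups shared a batch. Alternatives were other filters, scalings, a gene-span correction, a replicate block and leaving out arrays.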

Additional observations from a re-analysis of the deposited data

How the results depend on the processing

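The medians for arsenite on each diet and averaged over both stayed below 0 under every alternative run, but the calls did not hold. For HFD+As against LFD, 3 members were called; 5 were at an adjusted p of 0.1 and with 1 cluster per gene among the 60% highest means, 0 with all clusters of the table, 0 with only the groups compared, and 0 to 3 with single arrays left out. The number of clusters called, HFD+As against LFD, was 1071, against 1909 with 1 cluster per gene and the 60% filter, 1898 with the 60% filter alone, 678 without the gene-span trend (2 members, Ddx58 being lost), 156 with only the groups compared, 0 with all clusters of the table and 0 to 1107 with single arrays left out. At an adjusted p of 0.1 the calls over all clusters were not counted, so the members called there have no share beside them. In the other comparisons no member was called in the main fit. With 1 cluster per gene together with the 60% filter, 2 were called for HFD+As against HFD, 2 for HFD+As against LFD+As and 1 for arsenite averaged over both diets. The replicate block called 1 in the first and 1 in the last of these. In the first, the block also called clusters outside the members, where the main fit called 0 clusters. Whether the block called members more often than other clusters was not tested. The block is given as a number only, because the replicate numbers were not treated as pairs. Single arrays moved the median of HFD against LFD from -0.059 to 0.24, of HFD+As against HFD from -0.43 to -0.14 and of the interaction from -0.19 to 0.049.

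For HFD+As against LFD, leaving out single arrays gave Ifit1 -0.59 to 0.28, Ifit3 -0.59 to 0.0036 and Zbp1 -0.19 to 0.14. For HFD+As against HFD it gave Usp18 -0.27 to 0.090, Ifit1 -0.60 to 0.27 and Ifit3 -0.51 to 0.091. Quantile normalization turned Zbp1 to 0.057 in HFD+As against LFD and Usp18 to 0.042 in HFD+As against HFD. A further setting, chosen after seeing the data, left out replicate 1 of LFD and of HFD together: no member was then called in HFD+As against LFD (0), Zbp1 was at 0.12 and Ifit1 at 0.042 there, and Usp18, HFD+As against HFD, was at 0.0035, with Ifit1 at 0.11 and Ifit3 at 0.027 in that comparison. The cause of these changes was not tested.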
